A study of Mus musculus with 214 samples.

Results

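The livers described here came from mice without Mgmt, the gene of the direct-reversal repair protein that removes methyl groups from O6-methylguanine, collected 1 day after the second of a pair of doses of N-nitrosodimethylamine (NDMA) or saline. They were chosen by their labels as the Mgmt-/- libraries of the day 1 collection, 24 in all (12 NDMA, 12 saline), of 213 libraries with values in the series. The mice were C57BL6 and RaDR+/+;GPT+/+;Mgmt-/-, so the reporter alleles and the deletion were shared by both groups. NDMA was injected intraperitoneally at 3.5 mg/kg on postnatal day 8 and at 7 mg/kg on postnatal day 15, saline was given to the controls, and the livers were taken at an age of 16 days. Each group held 6 males and 6 females. In each group 8 libraries came from the sequencing run 191212Eng and 4 from the run 200803Eng. The study's methods say that litters were assigned to a treatment and that mice of more than 1 litter were used where this could be done. Litter is not in the labels, so its part in the differences was not tested.

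NDMA is a small nitrosamine that does not methylate DNA until hepatocytes oxidise it, chiefly through the cytochrome P450 CYP2E1, which lies in the hepatocytes around the central vein. The methyldiazonium ion that follows methylates bases, and O6-methylguanine left unrepaired pairs with thymine and draws repeated mismatch repair, which can end in breaks and in p53 signalling. DNA or RNA that reaches the cytosol can switch on IFN signalling, whose target genes encode GTPases, antigen presentation proteins and chemokines.

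RNA was measured as 3′ digital gene expression, in which each read marks the end of a transcript, so the values below are normalised counts per gene and are not corrected for length. Total depth ranged from 724591 to 4875515 reads per library. It ranged from 724591 to 2142816 reads in the run 200803Eng and, without the library D389094, from 1681979 to 4875515 in the run 191212Eng. The total of D389094, 1672388, is not certain, as its reads could not be recovered. With that total included, a difference in mean depth between treatments was not detectable (two-sided permutation test, p = 0.509). The 50 most abundant genes took 40.0% ± 2.43 of reads in NDMA livers and 45.4% ± 3.64 in saline livers (SD, n = 12 each, two-sided permutation test, p = 0.00072).

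Mgmt itself was checked first. Its normalised count was 0 at the lowest, 0.693 at the median and 7.96 at the highest in saline livers, and 0, 2.47 and 8.54 in NDMA livers. In CPM the Mgmt-/- medians were 0.312 (saline) and 1.47 (NDMA), against 22.9 in 21 WT saline and 38.1 in 26 WT NDMA livers of the same day. The highest Mgmt-/- liver, at 4.76 CPM, lay below the lowest WT liver, at 9.04. Hepatocyte transcripts were abundant in every library, with Alb at 55287, 104710 and 140520 normalised counts (lowest, median, highest) in saline and 29953, 64323 and 79696 in NDMA livers.

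Of 10055 genes with a mean of at least 5, 911 were higher and 869 lower after NDMA, where a gene was called if its limma adjusted p was below 0.05 and its log2 fold change exceeded 0.58 in size. Calls thus covered 17.7% of genes tested, 9.06% higher and 8.64% lower, and these shares are the background for every list below. The median log2 fold change of all genes was 0.02. This split depended on scaling. After scaling all libraries to equal totals, 1635 genes were higher and 512 lower, and the median of all genes moved to 0.20, so the changes below are read against that shift. Fold changes are differences of log2(normalised count + 1), which understates the change of genes with few reads. For 78 genes (0.776%) every NDMA liver lay above every saline liver, and for 46 genes (0.457%) every NDMA liver lay below.

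**Figure D1:**
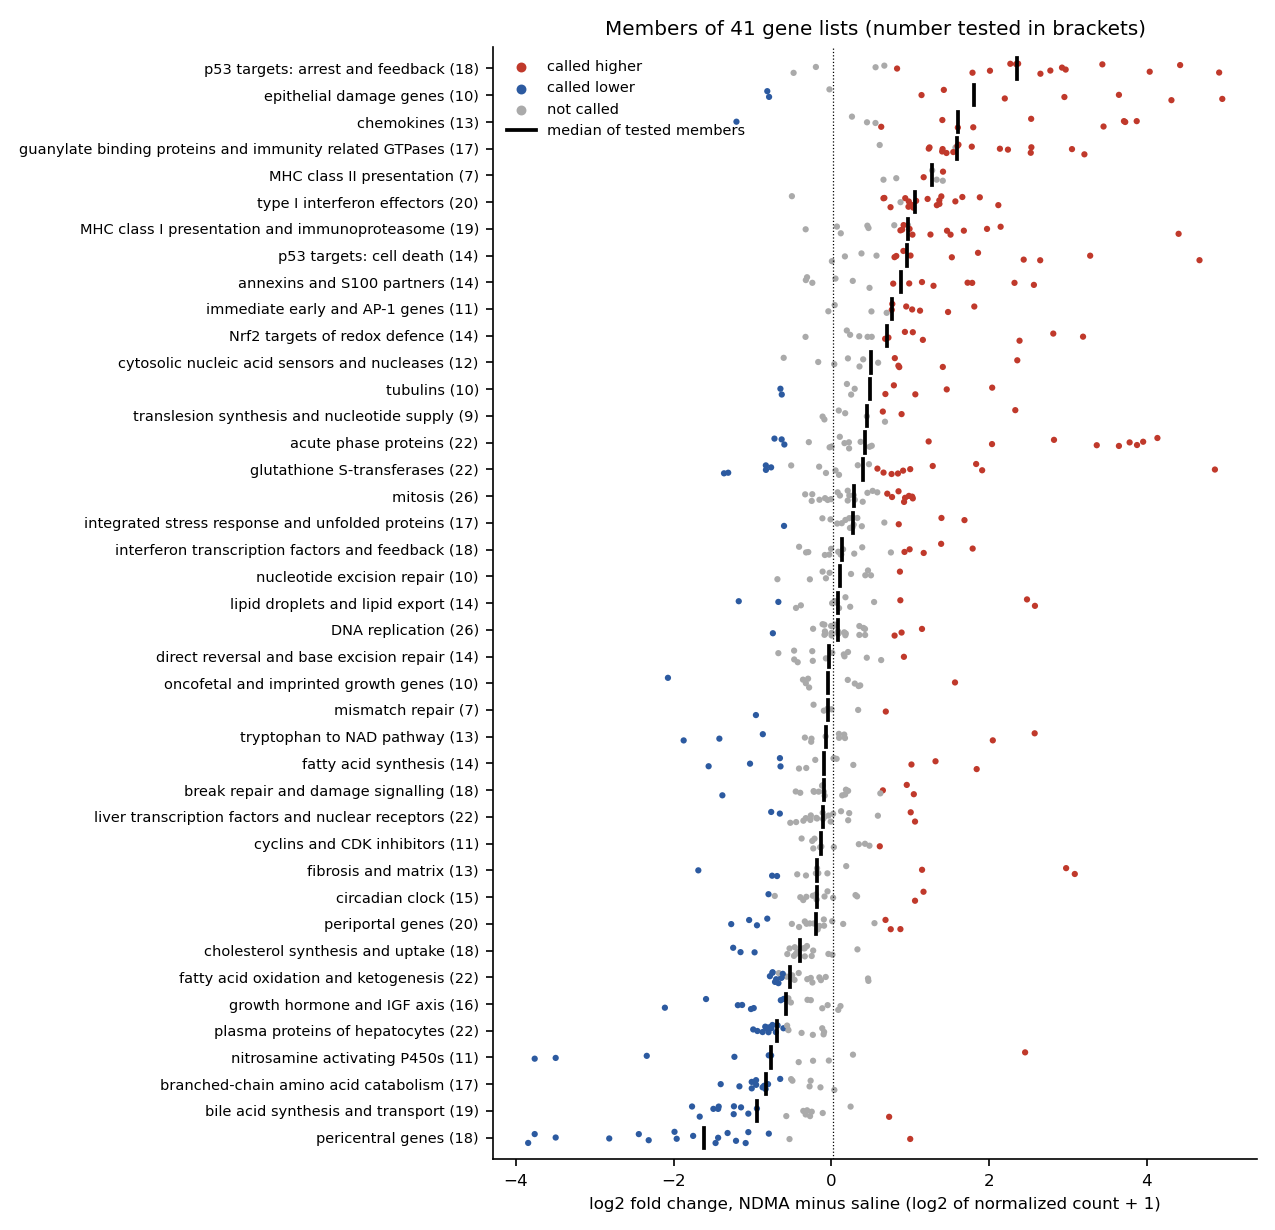
Log2 fold change (NDMA minus saline, log2 of normalised count + 1) of the tested members of 41 gene lists, 1 point per gene and 1 row per list with the number tested in brackets. Red points were called higher, blue lower and grey not called, black bars mark list medians and the dotted line the median of all genes. The p53 arrest list has the highest median at 2.36 and the pericentral list the lowest at -1.61.

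Of the genes called and averaging 20 normalised counts or more, the largest rises were led by Sprr1a, a cornified envelope protein of stressed epithelia, which was listed at 0 in all 12 saline livers and at 3.53, 29.9 and 201 normalised counts (lowest, median, highest) in NDMA livers. Against a floor of 3 reads over the saline group it was at least 223-fold higher. The other 11, by the size of their log2 fold change, were the p53 target Phlda3 (4.92), Gsta1 (4.86), Ddit4l (4.65), Gm4841 (4.53), Cox6b2 (4.53), Cdkn1a (4.42), Ubd (4.40), Ly6d (4.31), Saa2 (4.14), the noncoding Snhg15 (4.09) and the trypsin inhibitor Spink1 (3.998). Gsta1 and Saa2 have close paralogs between which 3′ reads may be split, and Gm3776, a near copy of Gsta1, was also listed at 0 in all 12 saline livers (at least 139-fold higher by the same floor). For 9 of these 12 genes all NDMA livers lay above all saline livers. The exceptions were Gm4841, Ubd and Saa2.

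By the same rule, the largest falls were led by Slc1a2, a glutamate transporter of pericentral hepatocytes, with 45.8, 58.99 and 81.8 normalised counts (lowest, median, highest) in saline and 0, 3.75 and 22.9 in NDMA livers, a log2 fold change of -3.85 ± 0.40 (SE, adjusted p = 4.06e-08). After it came Cyp2e1 (-3.76), Cyp1a2 (-3.50), the lipase relative Pnliprp1 (-3.46), the eosinophil granule protein Prg2 (-3.40), proline dehydrogenase Prodh (-3.13), Sult2a6 (-2.89), Cyp2c37 (-2.84), Pcp4l1 (-2.65), the mitochondrial carbonic anhydrase Car5a (-2.64), regucalcin Rgn (-2.55) and Sult2a5 (-2.46). Sult2a5, Sult2a6 and Sult2a8 (-2.44) are closely related sulfotransferases and their counts may be shared. Sult2a8 was, with Glul, Sult2a6, Pnliprp1 and the carboxylesterase Ces1c (-1.53), among the 5 lower genes with the smallest adjusted p. The 5 higher genes with the smallest p were Cdkn1a, Cox6b2, Spink1, Ccng1 and Ephx1, with Bax at the same adjusted p as Ephx1.

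The p53 targets of cell cycle arrest and feedback rose together. Of 18 tested members 14 were called higher and 0 lower, with a median log2 fold change of 2.36, against 0.02 over all genes. Cdkn1a, the CDK inhibitor p21, was at 12.2, 25.6 and 44.2 normalised counts (lowest, median, highest) in saline livers and at 347, 566 and 679 in NDMA livers. All 12 NDMA livers lay above all saline livers, with a log2 fold change of 4.42 ± 0.15 (SE, adjusted p = 3.72e-23). Cyclin G1, Ccng1, went from 8.64, 16.6 and 42.8 to 98.8, 184 and 331, again without overlap (3.44 ± 0.16 SE, adjusted p = 6.09e-19). Mdm2, the ubiquitin ligase that limits p53, had 4.93, 17.01 and 27.1 in saline and 41.1, 86.5 and 178 in NDMA livers (2.34 ± 0.19 SE, adjusted p = 5.69e-12), also without overlap. Phlda3, an inhibitor of AKT signalling, and Psrc1, a spindle protein, rose by 4.92 and 4.04 on the log2 scale. Sesn1 (-0.48), Sesn2 (0.67), Ppm1d (-0.20) and Ei24 (0.56) were not called. Trp53 itself had medians of 34.9 and 41.2 normalised counts, a log2 difference of 0.18 ± 0.20 (SE, adjusted p = 0.571) that did not pass.

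Of the p53 targets of cell death, 10 of 14 tested were higher and 0 lower, with a median of 0.96. The pore-forming Bax had 17.5, 27.7 and 47.4 normalised counts (lowest, median, highest) in saline livers and 121, 170.4 and 324 in NDMA livers, and the groups did not overlap (2.65 ± 0.14 SE, adjusted p = 7.00e-18). Eda2r, a death receptor of the TNF family, rose by 4.67, the BH3 proteins Pmaip1 (NOXA) and Bbc3 (PUMA) by 3.28 and 1.53, and the nuclease Aen by 2.44 on the log2 scale. Bid (0.17), Casp8 (0.01) and Tnfrsf1a (0.38) were not called. Within the runs 191212Eng and 200803Eng the medians were 2.42 and 2.38 for arrest genes and 0.96 and 1.28 for death genes. In the smaller run alone, 13 of 18 arrest and 8 of 15 death genes tested were called higher, and edgeR called 6 of 10 death genes tested.

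**Figure D2:**
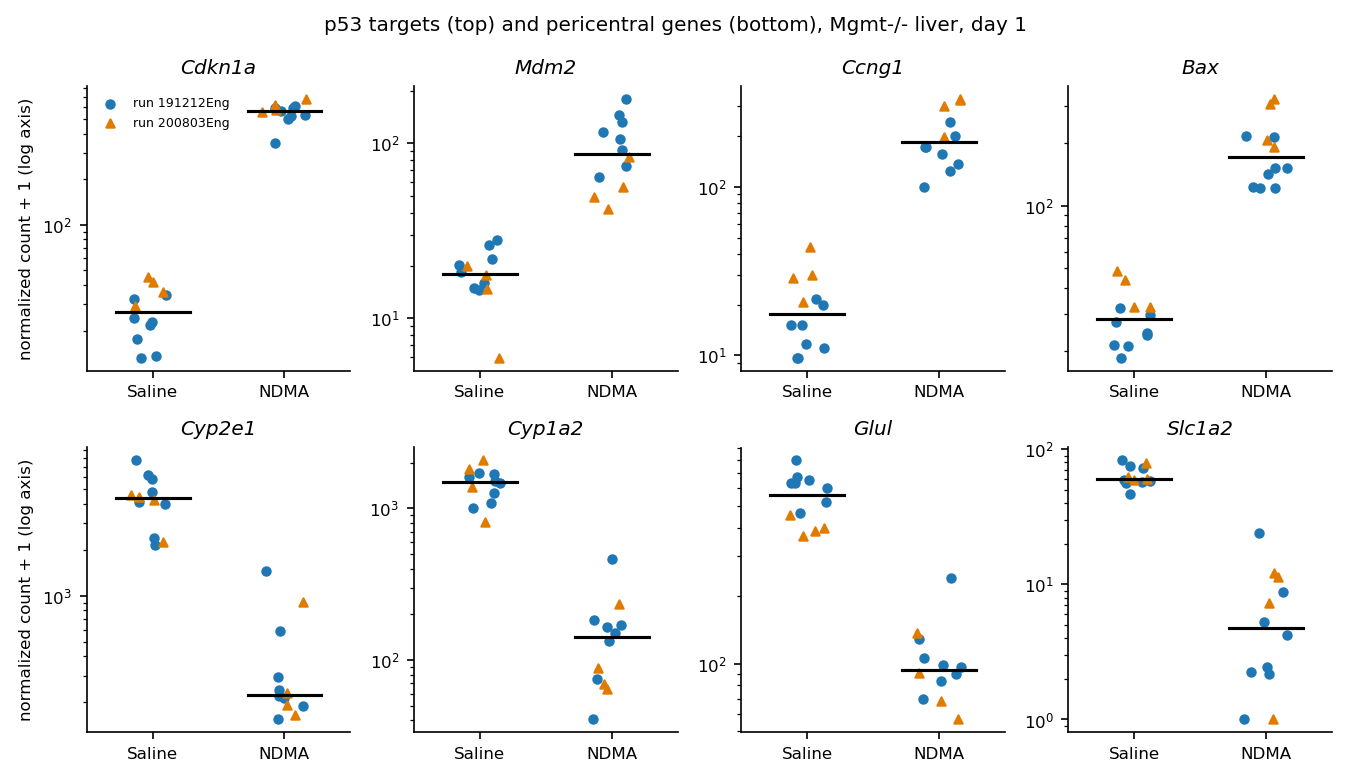
Normalised count + 1 (log axis) in each of the 24 livers for 4 p53 targets (top) and 4 pericentral genes (bottom). Points are livers, coloured by sequencing run, and bars are group medians. In all 8 panels the saline and NDMA livers do not overlap.

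Proximal promoters of 3 of these genes are shown because the genes moved together. The RefSeq table for GRCm38.p6 gives, for 17 of the 20 listed arrest genes, the window from 250 bases before to 50 bases after the start site. A match to the p53 consensus decamer, read on both strands, lay in 8 of the 17 (47.1%), in 3 of 12 death genes (25%) and in 9.55% of all 27025 genes with a window. Among all genes called higher it lay in 11.4%. Among list members called higher with a window, it lay in 5 of 11 arrest genes (45.5%) and 3 of 8 death genes (37.5%). Sesn1, Ppm1d and Ei24, which were not called, also held a match. A gene counted if any of its listed start sites held a match. The matches in the windows of Cdkn1a (chr17:29090729-29091028, plus strand, 1 of its 2 listed start sites), Mdm2 (chr10:117710709-117711008, minus strand) and Ccng1 (chr11:40755237-40755536, minus strand) are in capitals below, printed 5′ to 3′ along the gene. In Cdkn1a they begin 73 and 51 bases before the start, in Mdm2 186 and in Ccng1 185 bases before it. A match is a description of letters and not a measured binding site.
Cdkn1a: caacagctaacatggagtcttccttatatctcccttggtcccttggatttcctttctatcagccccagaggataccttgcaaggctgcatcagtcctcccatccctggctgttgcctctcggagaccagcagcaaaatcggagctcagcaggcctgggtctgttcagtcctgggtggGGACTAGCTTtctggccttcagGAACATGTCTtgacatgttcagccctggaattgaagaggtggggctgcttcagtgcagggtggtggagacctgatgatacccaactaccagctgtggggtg
Mdm2: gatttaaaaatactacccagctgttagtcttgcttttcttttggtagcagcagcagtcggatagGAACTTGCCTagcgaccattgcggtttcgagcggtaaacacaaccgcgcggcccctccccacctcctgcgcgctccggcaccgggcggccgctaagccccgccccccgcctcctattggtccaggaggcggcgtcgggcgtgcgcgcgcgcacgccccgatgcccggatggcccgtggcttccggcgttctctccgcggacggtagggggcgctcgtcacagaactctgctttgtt
Ccng1: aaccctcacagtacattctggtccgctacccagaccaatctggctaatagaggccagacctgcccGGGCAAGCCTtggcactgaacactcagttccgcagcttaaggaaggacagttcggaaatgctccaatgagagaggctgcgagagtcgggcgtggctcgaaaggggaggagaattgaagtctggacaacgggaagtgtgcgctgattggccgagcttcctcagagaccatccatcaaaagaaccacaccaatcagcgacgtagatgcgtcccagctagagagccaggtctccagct

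Smaller shares of the DNA repair lists than of the p53 lists were called. Polk, a translesion polymerase, was the exception, at 1.86, 7.04 and 9.86 normalised counts (lowest, median, highest) in saline and 18.4, 37.3 and 62.1 in NDMA livers, without overlap (2.33 ± 0.21 SE, adjusted p = 6.48e-11). With it in the list of translesion synthesis and nucleotide supply, the ribonucleotide reductase subunit Rrm2 (0.89) and Mad2l2 (0.65) were higher, 3 of 9 tested in all. Of 18 genes of break repair and damage signalling, 3 were higher and 1 lower. Among them were the kinase Chek2 (1.05), Brca1 (0.65 ± 0.22 SE, adjusted p = 0.0267) and, lower, the end-joining kinase Prkdc (-1.38). The groups overlapped for each of these, with Brca1 medians of 6.45 normalised counts in saline and 12.3 in NDMA livers. None of the 3 higher calls was made in males alone or in females alone.

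In the direct reversal and base excision list 1 of 14 tested genes was higher, the demethylase Alkbh2 (0.92), and the glycosylase Mpg, which removes N-methylpurines, stood at -0.24 and was not called. Mismatch repair had 1 higher and 1 lower of 7, Msh6 (0.69) and Msh3 (-0.96), while Pms2 (-0.05) and Mlh3 (0.34) were not called. Msh6 was no longer called without 2 saline livers described below, D209090 and D209093. No mismatch repair gene was called higher in either run alone, in either sex alone or in edgeR. Nucleotide excision repair had 1 of 10, the endonuclease Ercc5 (0.87), and 4 with equal totals per library (median 0.29). With the list medians at -0.03, -0.05 and 0.11, these 3 lists lay near the median of all genes.

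IFN-linked genes were the second large group to rise. Of 17 tested guanylate binding proteins and immunity related GTPases, which coat and disrupt vacuoles holding pathogens, 15 were higher and 0 lower (median 1.60). Males alone gave 7 higher of 17 tested and females alone 13 of 16. Of 20 type I IFN effectors 18 were higher and 0 lower (median 1.06). Gbp2 had 5.05, 17.5 and 94.8 normalised counts (lowest, median, highest) in saline and 36.8, 176 and 506 in NDMA livers (3.21 ± 0.41 SE, adjusted p = 3.79e-06). In this gene 10 of 12 NDMA livers lay above the highest saline liver. For Gbp3, with 7.64, 18.5 and 87.4 in saline and 23.004, 111 and 286 in NDMA livers, 8 of 12 did (2.54 ± 0.35 SE, adjusted p = 7.51e-06). Tgtp1 (3.05) and Gbp4 (2.53) completed the first 4, and Tgtp1 has a near-identical copy, Tgtp2. Among type I effectors the largest rises were in the nucleotide kinase Cmpk2 (2.12), the ubiquitin-like Isg15 (1.88), Xaf1 (1.66) and Ifit2 (1.57), and Cmpk2 was the one of these without overlap between groups.

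Upstream, 5 of 18 tested IFN transcription factors, receptors and feedback genes were higher and 0 lower (median 0.14). Irf8 (1.39 ± 0.28 SE, adjusted p = 2.55e-04), Irf7 (1.17), Irf1 (0.99) and Irf9 (0.93), which switch on IFN target genes, were among them, and the receptor chains Ifnar1, Ifnar2, Ifngr1 and Ifngr2 were not called (from -0.32 to 0.29). Ifnb1 and Ifng had means under 5 and were not tested. Of these transcription factors, receptors and feedback genes, the run 200803Eng alone called 0 higher, or 1 without saline D209090. Males alone gave 2. Among cytosolic nucleic acid sensors and nucleases 5 of 12 were higher. They were led by Zbp1, a sensor of Z-form nucleic acid, at 27.7, 53.4 and 186 in saline and 157, 321 and 421 in NDMA livers (2.36 ± 0.21 SE, adjusted p = 1.01e-09), and by the dNTP hydrolase Samhd1 (1.41). Tmem173, which encodes STING, was called at 0.86 ± 0.33 (SE, adjusted p = 0.0493), but was -0.31 within the run 200803Eng. Ddx58 (0.36), Ifih1 (0.21) and Trex1 (0.40) were not called.

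Antigen presentation followed. Of 19 tested genes of MHC class I presentation and the immunoproteasome, 12 were higher and 0 lower (median 0.97). The ubiquitin-like modifier Ubd rose by 4.40 on the log2 scale, the peptide transporter Tap1 by 2.15, H2-Q7 by 1.97 and the immunoproteasome subunit Psmb9 by 1.68. H2-Q genes share sequence, so reads may be divided among them. Psmb9 had 86.3, 114 and 639.6 normalised counts (lowest, median, highest) in saline and 257, 454 and 621 in NDMA livers, and no NDMA liver exceeded the highest saline liver. Of 7 tested genes of MHC class II presentation 2 passed, H2-Eb1 (1.42 ± 0.49 SE, adjusted p = 0.0393) and H2-DMb1 (1.17 ± 0.39 SE, adjusted p = 0.0279). The class II median was 1.28. In edgeR on whole reads, which left out D389094, 0 class II genes were called, whereas equal totals per library gave 6.

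One saline liver of the run 200803Eng, the library D209090, had values of several IFN-linked genes in or above the range of treated livers. Its Cxcl10, at 59.5, lay below the lowest NDMA liver (84.3). It held the highest saline count of Gbp2 (94.8), Ubd (296), Psmb9 (640) and H2-Eb1 (703), and its Cdkn1a, at 40.9, was within the saline range. A second saline liver of that run, D209093, had Saa1 at 10877 and Lcn2 at 608. Without both libraries 963 genes were higher and 831 lower, the 2 MHC class II calls became 7 of 7 tested, and Gbp2 stood at 3.61. Among NDMA livers, D389094 held the highest count of Ubd (817), Ly6d (2231), Ccl2 (302) and H2-Eb1 (216), but not of Gbp2 or Psmb9. The NDMA medians of its run, 191212Eng, were 208, 398, 107 and 86.5. Without D389094 alone, 822 genes were higher and 790 lower.

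**Figure D3:**
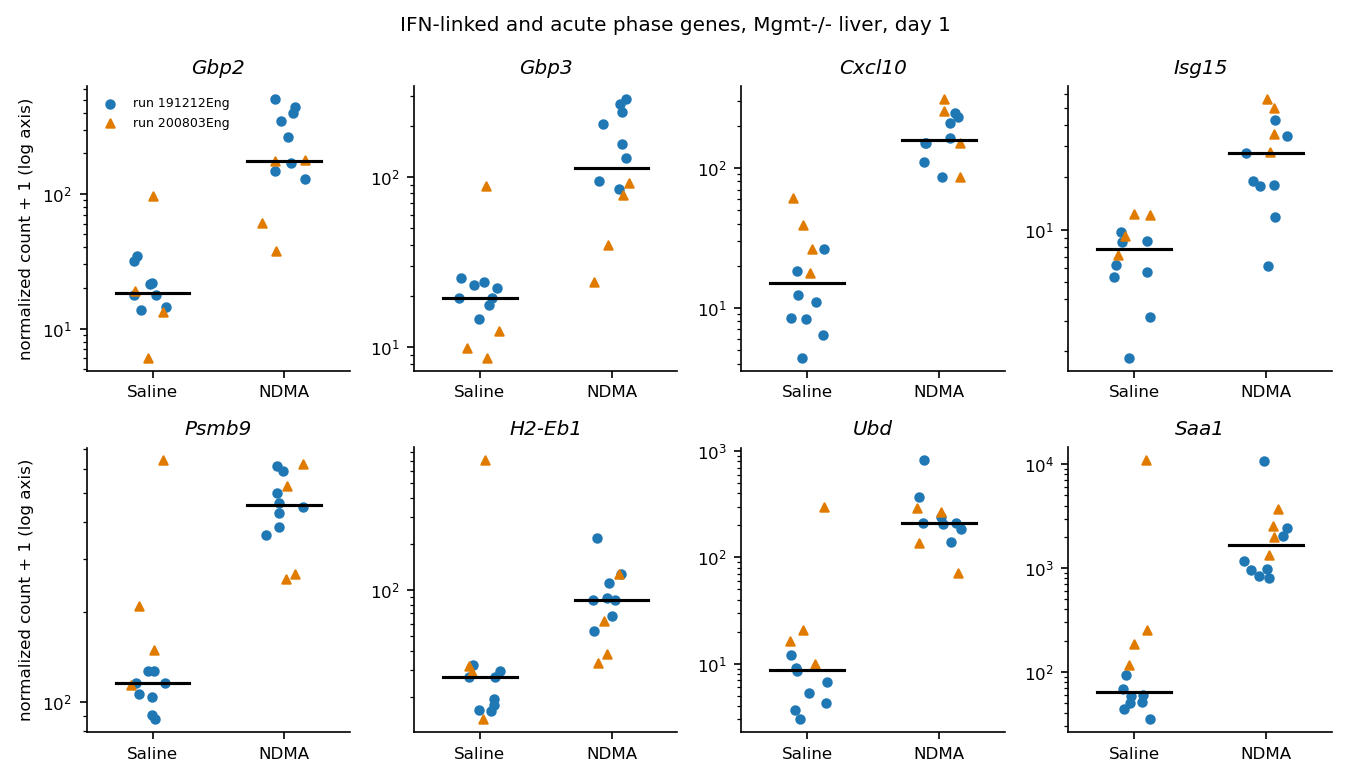
Normalised count + 1 (log axis) in each of the 24 livers for 7 IFN-linked genes and the acute phase gene Saa1. Points are livers, coloured by sequencing run, and bars are group medians. The saline liver from run 200803Eng that stands highest for Psmb9 (640), H2-Eb1 (703) and Ubd (296) is D209090, and the one highest for Saa1 (10877) is D209093.

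List medians of the IFN-linked genes were smaller in the run 200803Eng. The GTPase median was 2.50 in 191212Eng and 0.77 in 200803Eng, the type I effector median 1.42 and 0.51, the MHC class I median 1.20 and 0.51, and the class II median 2.11 and -0.31. In the run 200803Eng alone 0 GTPases, 4 type I effectors and 1 MHC class I gene were called higher. Without the saline library D209090, the 200803Eng medians were 1.51, 0.65, 0.90 and 0.65, and 8 GTPases, 6 type I effectors and 10 MHC class I genes were called. For Gbp2 the NDMA livers of that run lay at 36.8 to 178 and those of 191212Eng at 127 to 506. A test of treatment by run across all genes passed for 1 gene of 10055 (0.00995%), the major urinary protein gene Mup20, and for none of the IFN-linked genes, so a difference between runs in single IFN-linked genes was not shown. The runs also differed in depth, and what set their IFN values apart was not tested.

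**Figure D4:**
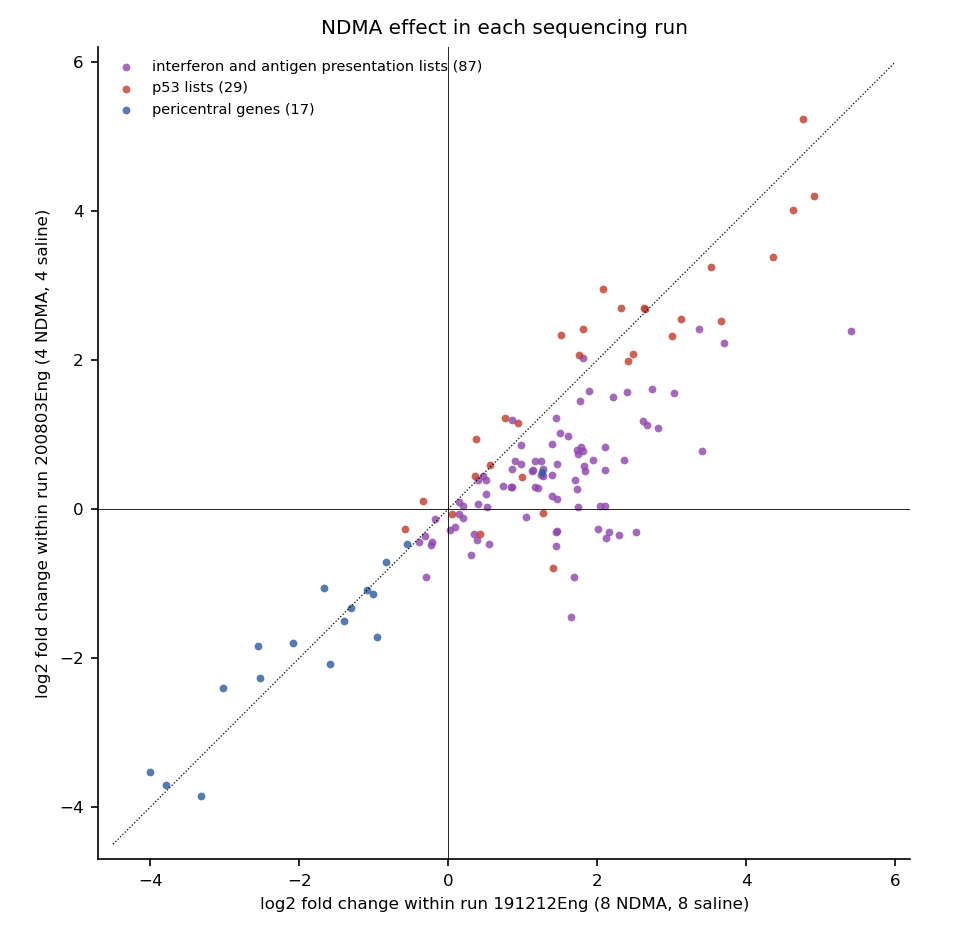
Log2 fold change within the run 191212Eng (horizontal, 8 NDMA and 8 saline livers) against that within the run 200803Eng (vertical, 4 and 4), 1 point per gene, for the IFN and antigen presentation lists, the p53 lists and the pericentral list. Points on the dotted line had equal changes. The p53 and pericentral genes lie near it, and most IFN-linked genes lie below it, as with Gbp2 at 3.70 and 2.23.

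Promoter windows of 3 IFN-linked genes are shown for the same reason, and the letters searched are those of elements known from IFN target genes. The ISRE core, GAAANNGAA on either strand, lay in 10 of 11 GTPase genes with a window (90.9%), 13 of 20 type I effectors (65%) and 4 of 21 IFN transcription factor and feedback genes (19%), against 9.76% of all genes with a window and 12.4% of all genes called higher. Among members called higher with a window, the core lay in 8 of 9 GTPase genes and 9 of 14 type I effectors. It lay in 0 of 4 such transcription factor and feedback genes. The GAS element, TTCNNNGAA, which can overlap an ISRE, lay in 54.5%, 25% and 33.3% of the same lists and in 9.55% of all genes. Windows of Gbp2 (chr3:142620413-142620712, plus strand), Gbp3 (chr3:142559794-142560093, plus strand) and Isg15 (chr4:156200769-156201068, minus strand) follow, 5′ to 3′ along the gene, with ISRE cores in capitals. In Gbp2 the element begins 58 bases before the start. Gbp3 has a pair of overlapping matches from 44 bases before it, and in Isg15 3 overlapping matches run from 78 bases before it.
Gbp2: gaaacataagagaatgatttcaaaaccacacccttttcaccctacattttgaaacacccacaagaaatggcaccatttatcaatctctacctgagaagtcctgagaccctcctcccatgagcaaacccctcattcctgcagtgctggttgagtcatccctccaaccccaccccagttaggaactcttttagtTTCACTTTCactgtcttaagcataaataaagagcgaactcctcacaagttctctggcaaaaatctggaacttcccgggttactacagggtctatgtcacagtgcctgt
Gbp3: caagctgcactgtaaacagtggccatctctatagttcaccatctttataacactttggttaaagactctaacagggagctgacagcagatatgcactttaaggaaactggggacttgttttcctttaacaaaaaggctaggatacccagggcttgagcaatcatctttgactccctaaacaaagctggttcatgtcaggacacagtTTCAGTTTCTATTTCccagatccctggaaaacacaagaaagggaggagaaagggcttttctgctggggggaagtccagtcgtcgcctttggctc
Isg15: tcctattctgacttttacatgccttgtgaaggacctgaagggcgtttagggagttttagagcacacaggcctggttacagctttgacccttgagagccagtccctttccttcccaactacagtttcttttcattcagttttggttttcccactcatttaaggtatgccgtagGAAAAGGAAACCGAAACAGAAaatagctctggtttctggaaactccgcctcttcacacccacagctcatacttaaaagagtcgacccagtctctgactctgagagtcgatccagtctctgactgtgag

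Chemokines rose with them, 9 higher and 1 lower of 13 tested (median 1.60). Ccl2, which draws monocytes, was at 1.94, 7.41 and 10.1 normalised counts (lowest, median, highest) in saline and 56.2, 109.6 and 302 in NDMA livers, with no overlap (3.87 ± 0.22 SE, adjusted p = 3.44e-16). Cxcl10, a ligand of CXCR3 on T cells, had 3.38, 14.1 and 59.5 in saline and 84.3, 156 and 309 in NDMA livers, also with no overlap (3.45 ± 0.29 SE, adjusted p = 8.48e-10). Ccl7 (3.71) and Cxcl9 (3.73) were of like size, and Cxcl12, a homeostatic chemokine, fell (-1.20).

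Of 22 acute phase genes tested, 9 were higher and 3 lower (median 0.43), and with equal totals per library 11 and 0. Males alone gave 11 higher and 0 lower (median 0.74), females alone 5 and 4 (median 0.05) and the run 200803Eng alone 3 and 0. Saa1, Saa2, Saa3 and the iron hormone Hamp rose by 3.95, 4.14, 3.88 and 3.78 on the log2 scale, whereas the fibrinogen chains Fga (0.22), Fgb (0.11) and Fgg (0.00) and haptoglobin Hp (0.17) were not called, and Itih3 (-0.72), Itih4 (-0.63) and Crp (-0.60) were lower. The Hamp saline medians were far apart by run, at 6.24 normalised counts in 191212Eng and 184 in 200803Eng, beside NDMA medians of 216 and 519. Saa1 ranged from 33.8 to 10877 in saline livers, the latter in D209093, and from 807 to 10723 in NDMA livers, so the groups overlapped. Saa3 did not overlap, at 18.3, 36.4 and 243 in saline and 372, 657 and 2240.4 in NDMA livers (lowest, median, highest). Saa1 and Saa2, and the Orm genes (3.37, 2.82 and 2.04 for Orm1, Orm2 and Orm3), are close paralogs.

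Genes of xenobiotic conjugation and redox defence changed in both directions or rose. Among 22 glutathione S-transferases 10 were higher and 5 lower. Gsta1 went from 0, 0.508 and 8.22 normalised counts (lowest, median, highest) to 14.1, 48.8 and 198 without overlap (4.86 ± 0.33 SE, adjusted p = 9.53e-14), Gsta2 (1.91) and Mgst2 (1.84) rose less, and Gstm2 (-1.36) and Gsta3 (-1.31) fell. Of 14 Nrf2 targets 8 were higher and 0 lower (median 0.70). Epoxide hydrolase Ephx1 had 99.8, 177 and 259 in saline and 549, 1319 and 2176 in NDMA livers, without overlap (2.81 ± 0.14 SE, adjusted p = 7.00e-18). Carbonyl reductase Cbr3 (3.19), sulfiredoxin Srxn1 (2.39) and Pgd (1.16) were the others of the first 4, Nqo1 was at 1.03, and Hmox1 (0.35), Gclc (0.20) and Gclm (-0.33) were not called. The ARE core TGACNNNGC lay in 6 of 14 Nrf2 targets with a window (42.9%), 4 of 21 glutathione S-transferases (19%) and 14% of all genes. Among all genes called higher it lay in 19.1%, and among the 9 glutathione S-transferases called higher in 0. With the bases before the start alone, the share of Nrf2 targets was 28.6%.

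Stress and immediate early genes were less uniform. Of 11 immediate early and AP-1 genes 7 were higher (median 0.77), led by Jun (1.81 ± 0.22 SE, adjusted p = 4.23e-08) and Fos (1.48). Males alone gave 1 higher gene of this list, females alone 4 and edgeR 4. In the integrated stress response and unfolded protein list 3 of 17 were higher, the hormone Fgf21 (1.69), the factor Ddit3 (1.40) and Psat1 (0.85), and 1 was lower, Herpud1 (-0.60). Atf4 (-0.01) and Hspa5 (0.18) were not called.

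Pericentral genes fell. Of 18 tested, 16 were lower and 1 higher, with a median of -1.61. Cyp2e1, the main activator of NDMA, was at 2160, 4338 and 7682 normalised counts (lowest, median, highest) in saline and 154, 223 and 1446 in NDMA livers, and every NDMA liver lay below every saline liver (-3.76 ± 0.35 SE, adjusted p = 4.69e-08). The NDMA liver with the highest Cyp2e1 was D389070, whose label says that its mouse entry was created retroactively. Glul, the glutamine synthetase of the last hepatocyte layer at the central vein, had 368, 557 and 794 in saline and 55.5, 92.8 and 237 in NDMA livers, without overlap (-2.44 ± 0.15 SE, adjusted p = 7.15e-16). Cyp1a2 (-3.50) and Notum (-2.82), a secreted Wnt inhibitor, also fell, and the Wnt targets Lgr5 (-1.96), Rnf43 (-1.21) and Tbx3 (-1.09) fell with them. The higher gene was Gstm3 (1.0005). In these bulk samples fewer cells of a type and less RNA per cell cannot be told apart. The list medians were alike in the runs, at -1.63 and -1.72.

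Of the endothelial genes that feed this zone, Rspo3 (-1.28 ± 0.21 SE, adjusted p = 1.52e-05) and Wnt2 (-0.93 ± 0.19 SE, adjusted p = 3.45e-04) were lower. Periportal genes were mixed, with 3 higher and 4 lower of 20 (median -0.20, and 0.00 with equal totals). The urea cycle genes Otc, Ass1 and Cps1 fell by 1.04, 0.94 and 0.81, while Pck1 (-0.10) was not called. Cyp2f2 was called higher (0.88), with saline and NDMA medians of 418 and 979 in 191212Eng and 423 and 377 in 200803Eng, where its log2 fold change was 0.08, and -0.25 without D209090 (adjusted p of the difference between runs = 0.431). Among P450s and partners that act on nitrosamines, 6 of 11 were lower and 1 higher. Cyp2c29 (-2.34) and Cyp2a5 (-1.23) fell with the reductase Por (-0.76), and Cyp2a4, close in sequence to Cyp2a5, rose (2.46 ± 0.23 SE, adjusted p = 1.51e-10), from 4.18, 8.12 and 27.9 to 30.9, 52.6 and 90.5 without overlap.

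Lists of other hepatocyte functions follow. Bile acid synthesis and transport had 10 lower and 1 higher of 19 (median -0.94). The rate-limiting enzyme Cyp7a1 (-1.44 ± 0.21 SE, adjusted p = 4.75e-06), Hsd3b7 (-1.77), Akr1d1 (-1.50) and the uptake carrier Slco1b2 (-1.67) were lower, and the phospholipid pump Abcb4 was higher (0.73). Branched-chain amino acid catabolism had 11 of 17 lower and 0 higher (median -0.83), among them Mccc2 (-1.40), Ivd (-1.17) and both E1 subunits of the branched-chain dehydrogenase, Bckdha (-1.01) and Bckdhb (-1.01). The growth hormone and IGF axis had 8 of 16 lower and 0 higher (5 lower with equal totals). Igfbp3 (-2.11), Igfals (-1.59), the receptor Ghr (-1.19 ± 0.12 SE, adjusted p = 8.21e-10) and Stat5a (-1.13) led it, and no Ghr value of the 12 NDMA livers reached the saline range.

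Plasma protein genes had 13 of 22 lower and 0 higher (8 lower with equal totals). Alb (-0.82), Apoa1 (-0.80), Serpina1c (-0.99), Plg (-0.94), Apoe (-0.87) and Rbp4 (-0.84) were among them. Males alone gave 2 lower genes and females alone 16, and the run 200803Eng alone gave 1. Of the 5 most abundant genes, Alb, Apoa1 and Ahsg (-0.76) were called, and Apoa2 (-0.57) and Ttr (-0.55) fell short of the fold threshold. Fatty acid oxidation and ketogenesis had 9 of 22 lower and 0 higher, but 1 lower and 1 higher when totals were made equal. Etfdh (-0.78), Acaa2 (-0.75), Acaa1b (-0.75) and Acadl (-0.71) led this list, and Cpt1a (-0.07), the gate of mitochondrial uptake, was not called.

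Cholesterol synthesis and uptake had 3 of 18 lower, among them Hmgcs1 (-1.24) and Insig1 (-1.15). Fatty acid synthesis had 3 higher and 4 lower of 14 (3 and 2 with equal totals), with Elovl6 (1.84) and Me1 (1.32) up and Thrsp (-1.56) and Srebf1 (-1.03) down. Of 14 genes of lipid droplets and export 3 were higher, the apolipoprotein Apoa4 (2.58 ± 0.22 SE, adjusted p = 2.25e-10), the droplet protein Cidec (2.48) and Plin2 (0.88), and 2 lower, Fitm1 (-1.17) and Plin5 (-0.67). The run 200803Eng alone gave 2 higher and 0 lower. Fitm1 medians in saline and NDMA livers were 36.4 and 31.5 in that run and 30.3 and 8.43 in 191212Eng. Along the path from tryptophan to NAD, 2 of 13 were higher and 3 lower. Nnmt, which methylates nicotinamide, had 21.7, 129 and 331 normalised counts (lowest, median, highest) in saline and 483, 748 and 1031 in NDMA livers, without overlap (2.58 ± 0.28 SE, adjusted p = 2.06e-07). Acmsd (2.05) rose, and Afmid (-1.87), Aox3 (-1.42) and Haao (-0.87) fell.

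Liver transcription factors had 2 higher (Dbp 1.06, Onecut1 1.01) and 2 lower (Nr1i3 -0.76, Nr5a2 -0.65) of 22, with Hnf4a at -0.18, and with equal totals 3 and 0. The circadian clock list had 2 higher, Ciart (1.17) and Dbp, and 1 lower, Hlf (-0.80), of 15. In the oncofetal and imprinted list Afp, the fetal albumin, rose (1.57 ± 0.43 SE, adjusted p = 0.00889) and the CDK inhibitor Cdkn1c fell (-2.07 ± 0.26 SE, adjusted p = 1.08e-07), 1 each of 10. Afp was not called in the run 191212Eng alone (adjusted p = 0.0603) or in females alone (adjusted p = 0.358).

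Cell cycle genes showed 8 of 26 mitosis genes higher and 0 lower (median 0.29). Hmmr (1.03), Ube2c (1.03), Aurka (0.98) and Cenpe (0.94) led them, and Mki67 (-0.24), Plk1 (-0.33) and Ccnb1 (0.40) were not called. Males alone gave 10 higher mitosis genes and females alone 0. The run 200803Eng alone gave 1, and 0 without saline D209090 (median 0.04). DNA replication had 3 higher and 1 lower of 26 (5 and 0 with equal totals, 1 and 1 in edgeR), E2f1 (1.15), Rrm2, Cdt1 (0.80) and, lower, the thymidine kinase Tk1 (-0.74). All 6 Mcm2 to Mcm7 helicase genes were not called, from -0.09 to 0.41. Among cyclins and CDK inhibitors 1 of 11 was higher, Ccnd2 (0.61). The E2F motif TTTCCCGC or TTTGGCGC lay in 42.9% of 21 replication gene windows, in 0 of 22 mitosis gene windows and in 1.8% of all genes.

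Genes of cell shape and injury follow. Of 14 annexins and S100 partners 8 were higher and 0 lower (median 0.89). S100a10, the partner of annexin A2, had 120.0, 204 and 383 normalised counts (lowest, median, highest) in saline and 432, 715 and 1873 in NDMA livers, without overlap (1.79 ± 0.16 SE, adjusted p = 5.84e-11). S100a11 (2.57), S100a6 (2.32) and S100a4 (1.73) rose with it. Of 10 epithelial damage genes 7 were higher and 2 lower (median 1.81). Besides Sprr1a these were Ly6d (4.31 ± 0.34 SE, adjusted p = 2.15e-09), Lcn2 (3.65), Tff3 (2.96) and the keratins Krt20 (2.20), Krt18 (1.43) and Krt8 (1.14), and Cd24a (-0.81) and Spp1 (-0.79) were lower. Among 10 tubulins 5 were higher, Tuba8 (2.04), Tubb4b (1.46), Tubb6 (1.07), Tuba1a (0.79) and Tubb2a (0.69), and 2 lower, and with equal totals per library 5 and 0. Fibrosis and matrix genes had 3 higher and 3 lower of 13, the protease Mmp12 (3.09), its inhibitor family member Timp1 (2.98) and Thbs1 (1.15) against Ecm1 (-1.69), Col1a2 (-0.75) and Col3a1 (-0.69). Equal totals per library gave 3 higher and 1 lower, edgeR 1 and 3, and the run 200803Eng alone 0 and 1.

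Markers of other cells moved in the same livers. Of 7 tested T and NK cell markers 6 were higher, with Cd8b1 (1.72), Gzma (1.55), Nkg7 (1.46) and Cd3d (1.40) leading and a summed level of 58.4 normalised counts at the saline median and 183 at the NDMA median. Its most abundant gene was Gzma (mean 46.1 over the 24 livers), and Trac and Trbc2 were not analysed here. Males alone gave 0 higher markers of this list and females alone 7. Monocyte and recruited macrophage markers were higher in 5 and lower in 1 of 9 (Gpnmb 2.42, Ccr2 1.77, Trem2 1.58), with sums of 604 and 895 and Lyz2 the most abundant (mean 574). In the run 200803Eng alone none of the T and NK and none of the monocyte and recruited macrophage markers was called higher, and edgeR called 2 of the latter higher. Whether these cells carry part of the IFN-linked and MHC changes was not tested.

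Kupffer cell markers had 2 lower, Clec4f (-1.23) and Vsig4 (-0.87), and 1 higher, Marco (1.19), of 10, and their sums were 1028 and 1129. The Marco call was not made by edgeR. Of the red cell precursor markers 6 of 7 were lower (2 in the run 191212Eng alone, 3 in females alone and 4 with equal totals), with Alas2 (-1.06) and the globins (Hba-a1 -0.96, with the same counts listed for Hba-a2, so that 1 measurement enters the tally and the sum as 2 genes). The markers' sum went from 39322 to 22501, with Hbb-bs the most abundant. Endothelial markers fell in 6 and rose in 1 of 11, among them the sinusoidal receptors Stab2 (-1.43 ± 0.17 SE, adjusted p = 4.66e-08) and Clec4g (-1.001). Of the stellate cell and fibroblast markers Reln (-2.01 ± 0.19 SE, adjusted p = 2.25e-10), Lrat (-1.36), Ecm1 and Dcn (-0.62) were lower and Acta2 (1.61) higher, of 10.

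Neutrophil markers had 2 of 3 lower, S100a9 (-1.35 ± 0.42 SE, adjusted p = 0.021) and Retnlg (-0.95), and neither was called without D209090 and D209093 (S100a9 at -1.24, adjusted p = 0.0583). Neutrophil precursors had Ngp (-2.10) and Camp (-1.84) lower and Lcn2, which hepatocytes also make, higher, of 5, with 0 lower in the run 191212Eng alone or in males alone. B and plasma cells had 1 lower of 3 (Cd79b -0.79, not called without those 2 livers), cholangiocytes 1 lower of 3 (Spp1), platelets 0 of 4 (Pf4 0.11), and hepatocyte markers 3 lower of 7 (Serpina1c, Alb and Apoa1). No dendritic cell or kidney marker reached a mean of 5, and the 1 tested pancreas marker, Cela2a (0.08), was not called.

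Males and females were compared for the size of the NDMA effect. The term of treatment by sex passed for 0 of 10055 genes (0%) in limma and 0 of 8804 in edgeR, which left out D389094, and 715 had an unadjusted p under 0.05 in limma and 547 in edgeR. Fitted alone, the 12 males gave 571 higher and 458 lower genes and the 12 females 805 and 852. The p53 arrest median was 2.09 in males and 2.70 in females, and the pericentral median -1.66 and -1.62.

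Day 2 after the second dose was covered by 8 NDMA and 7 saline Mgmt-/- livers of the run 191212Eng. There the medians of the lists given next were of like direction. They were 2.76 for p53 arrest genes, 2.59 for GTPases, 1.51 for type I effectors and -1.75 for pericentral genes, beside 2.42, 2.50, 1.42 and -1.63 in the day 1 livers of the same run and 2.36, 1.60, 1.06 and -1.61 in all day 1 livers. Some smaller list medians changed sign, such as that of cyclins and CDK inhibitors, at -0.13 in all day 1 livers and 0.16 at day 2. The term of treatment by day passed for 1 gene of 9871 (0.0101%), for 4 in edgeR and for 0 in the run 191212Eng alone or with a pseudocount of 5. The gene was Fam25c, which was 0.70 at day 1 and -0.67 at day 2 (fitted difference -1.34, adjusted p = 0.0496). Its effect at each day came from a separate fit and the difference from the fit of both days. For the other genes a p that missed the threshold does not show equal effects.

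The effect of the genotype was tested in edgeR on whole reads of the runs that hold both, with 11 NDMA and 12 saline Mgmt-/- livers and 14 NDMA and 12 saline WT livers. Taken by itself, Mgmt-/- gave 726 higher and 728 lower of 8804 genes, and WT 305 and 273 of 8421. The term of genotype by treatment passed for 14 of 9750 genes (0.144%), 5 with the larger value and 9 with the smaller in Mgmt-/-. Medians over list members were 2.48 in Mgmt-/- and 1.76 in WT for p53 arrest genes, 0.82 and 0.29 for p53 death genes, 1.88 and 1.47 for GTPases, 1.17 and 0.90 for type I effectors, -1.49 and -1.45 for pericentral genes and -0.99 and -0.22 for bile acid genes. In Mgmt-/- these medians covered 14 arrest, 10 death and 13 GTPase genes tested, and the members tested in WT may differ. No member of the p53 lists passed the genotype term. Cdkn1a, for example, rose by 4.39 in Mgmt-/- and 2.97 in WT (adjusted p of the difference = 0.245).

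Spink1, S100a6, Jun, Cox6b2 and the IFN-induced Ifi27l2a rose more in Mgmt-/- livers. Spink1 changed by 3.89 and 1.51 on the log2 scale in Mgmt-/- and WT, with a fitted difference of 2.36 (adjusted p = 0.00654), and Jun by 1.77 and 0.22. Changes within a genotype came from separate fits and differences from the fit of both, so they do not subtract exactly. Osteopontin, Spp1, was at -0.77 in Mgmt-/- and 0.59 in WT, with a fitted difference of -1.43 (adjusted p = 0.00654). The uridine phosphorylase Upp2 (-1.0002 and 0.40), the histidine catabolic enzymes Hal (-0.16 and 0.83) and Amdhd1 (-0.69 and 0.04), and Cyp2c29 (-2.18 and -0.33) were also lower in Mgmt-/- relative to WT, as were Fam13a, Dbt, Cyp2b13 and Acsm1. With the WT livers of a further run added, 1 of 10068 genes passed, Spp1. In 2 WT libraries of the fit the sex genes went against the label, and without them 13 genes passed.

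**Figure D5:**
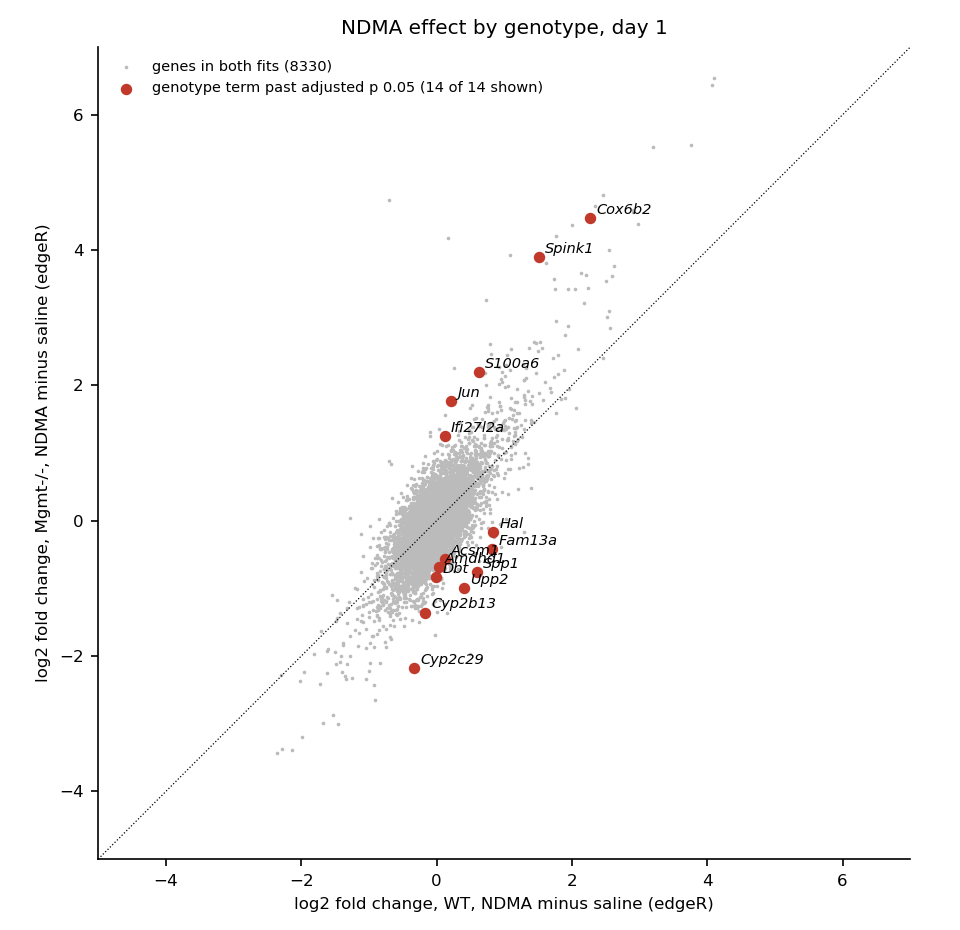
Log2 fold change (NDMA minus saline, edgeR) in WT livers (horizontal) against Mgmt-/- livers (vertical) at day 1, 1 point per gene, for 8330 genes in both fits. The 14 genes past the genotype term are red and named, and points on the dotted line had equal changes. Cox6b2 and Spink1 lie farthest above the line among the named genes, and Cyp2c29 farthest below.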

How the data were processed

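The deposited values are signal: 3′ read counts per gene that the authors aligned to GRCm38/mm10 with STAR, counted with ESAT and divided by a DESeq2 size factor per library, each genotype normalised apart (versions are not given in the sources used here). In all 24 libraries values are whole multiples of 1 step, and reads were recovered, except in 1 NDMA library (D389094), whose step is too near 1. It stayed out of tests on counts.

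The main test was limma 3.58.1 in R 4.3.3 (trend, robust) on log2(value + 1) with treatment, sex and sequencing run as terms, for genes with a mean of at least 5, with Benjamini-Hochberg adjustment over all of them. Genes were called at an adjusted p below 0.05 with a log2 fold change above 0.58 in size. The genotype term used edgeR 4.0.16 (quasi-likelihood, TMM) and all p-values are two-sided. An alternative used DESeq2 1.42.0. Permutation tests (SciPy 1.17.1) drew 100000 resamples. The scripts were tested on simulated counts.

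Lists (41 of genes, 15 of cell markers) carry no test. Named genes were the 12 largest changes each way with a mean of at least 20, up to 4 called members per list, 11 genes always given, the 5 smallest adjusted p each way, up to 6 past each interaction and the 5 most abundant, and others are named as uncalled or further list members after their values were seen. Members and lists were chosen with earlier results of these data known. Alternatives were other pseudocounts, mean filters, scalings and tools, single runs and sexes, and leaving out each liver. Each library is 1 mouse by the study's methods. Some genes that the rule names are not reported here.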

Additional observations from a re-analysis of the deposited data

Results flagged for a closer look

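These results were picked out because the NDMA effect differed between groups by a test of the difference itself. For genotype (edgeR, Mgmt-/- minus WT, log2 scale) the differences were 2.36 for Spink1, 2.23 for Cox6b2, 1.63 for Jun, 1.54 for S100a6 and 1.12 for Ifi27l2a. They were -1.43 for Spp1, -1.42 for Upp2, -0.75 for Amdhd1, -1.27 for Fam13a, -0.84 for Dbt, -1.20 for Cyp2b13, -1.04 for Hal, -1.88 for Cyp2c29 and -0.69 for Acsm1. In the same tool Fam13a and Hal were not called within Mgmt-/- livers (-0.42 and -0.16), and their WT changes were 0.82 and 0.83.

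Between runs the effect on Mup20 differed by -4.04 (limma, 200803Eng minus 191212Eng, adjusted p = 0.00182). Its saline median was 0.508 normalised counts in 191212Eng and 205 in 200803Eng, and its NDMA median 29.8 and 237, so the runs were far apart already in saline livers. Between days the effect on Fam25c differed by -1.34 (day 2 minus day 1). Its median at day 1 also differed by run, at 116 and 319 in saline livers.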

How the results depend on the processing

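Counts of genes higher and lower (911 and 869 as reported) stayed within 1.5 times except as follows. A mean of at least 20 gave 551 higher. Equal totals per library gave 1635 and 512. The run 200803Eng alone gave 271 and 294, and 396 and 412 without saline D209090, an alternative chosen after seeing the data, as were leaving out D209090 with D209093 and edgeR with D389094. Males alone gave 571 and 458. Leaving out 1 liver at a time gave 822 to 985 higher and 790 to 907 lower, with both lowest counts without D389094. The gene past the term by run was lost with a pseudocount of 5 (0), the gene past the term by day with a pseudocount of 5 (0) or the run 191212Eng alone (0), and edgeR gave 4. The genotype term gave 1 gene with all WT runs and 7 with 191212Eng alone, 2 higher and 5 lower. Of 200 named genes with a test, 194 were called in the main fit. Of these 194, 106 lost their call in at least 1 alternative, 86 of them in 200803Eng alone, 51 in males alone and 38 in females alone. The direction turned for Tmem173 in 200803Eng (-0.31, and -0.43 without D209090), and without D209090 in that run for Cyp2f2 (-0.25) and Aurka (-0.0417), with the cause not tested. With the window limited to the bases before the start, the E2F share of replication genes was 23.8%. No paired analysis was possible because replicate numbers are unique to each mouse. The lowest depth was 724591 reads, in the run 200803Eng.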

Other observations

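Mitosis genes stood apart by sex in their list median, at 0.90 in males and -0.10 in females, with 10 higher and 0 lower of 26 in males alone and 0 and 2 in females alone. Plasma protein genes had a median of -0.42 in males and -0.93 in females, with 2 of 22 lower in males alone and 16 in females alone. No single gene passed the term of treatment by sex, so these are values of the lists and a difference between the sexes was not shown.

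Sterol genes stood lower at day 2, with a cholesterol list median of -0.39 at day 1 and -0.98 at day 2. Hmgcs1, which makes the precursor of mevalonate, had a log2 fold change of -1.24 at day 1 and -2.59 at day 2 (adjusted p of the difference = 0.518), so a difference between the days was not shown.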
